A study of Mus musculus with 2 samples.

Results

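The platelet-derived growth factor (PDGF) genes of the mouse encode 4 ligands (Pdgfa, Pdgfb, Pdgfc and Pdgfd) and 2 receptors (Pdgfra and Pdgfrb), and their transcripts were followed here across the endothelial, alveolar type 1, pericyte and fibroblast cells of chimeric lungs. The 6 genes were taken by symbol, and each was found among the 32285 genes of both count matrices. The study put lung cells of donors that carry the red reporter tdTomato, as a single-cell suspension, into C57Bl mice. The lungs of 3 chimeric mice were taken 6 months later, dissociated and pooled. Live CD45-negative (non-leukocyte) cells were sorted with tdTomato for the donor library and without it for the recipient library, and droplet single-cell RNA was sequenced from each sort. How the mice were prepared for the transplant, their sex and their age are not given in the sources used here, and both libraries come from the same pooled lungs.

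PDGF ligands are secreted as dimers and act on receptor tyrosine kinases of neighbouring cells. The alpha receptor takes the A, B and C chains, and the beta receptor takes chiefly the B and D chains. In the lung, epithelial PDGF-A is known for its action on fibroblasts that carry the alpha receptor during the formation of alveoli, and endothelial PDGF-B for the recruitment of pericytes, the contractile cells wrapped around capillaries, through the beta receptor.

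In mm10 coordinates with GENCODE M21 annotation, Pdgfa (ENSMUSG00000025856) spans chromosome 5 from 138976014 to 138997370 on the minus strand. Pdgfb (ENSMUSG00000000489) spans chromosome 15 from 79995874 to 80014977, also on the minus strand. Pdgfc (ENSMUSG00000028019) lies on chromosome 3 from 81036416 to 81214040 and Pdgfd (ENSMUSG00000032006) on chromosome 9 from 6168584 to 6378850, both on the plus strand. Pdgfra (ENSMUSG00000029231) lies on chromosome 5 from 75152292 to 75198215 on the plus strand.

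The 100 bases before a RefSeq transcription start (GRCm38.p6) are printed 5′ to 3′ for the 4 members with such a window in the reference used here, because the transcripts of these genes stood high in 1 or a few cell types and low in the rest. Capitals mark the GC box GGGCGG, the core motif of the SP factors, searched on both strands.
Pdgfa, chr5:138994282-138994381 (- strand): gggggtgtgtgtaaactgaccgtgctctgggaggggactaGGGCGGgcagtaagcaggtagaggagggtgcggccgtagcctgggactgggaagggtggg
Pdgfc, chr3:81036316-81036415 (+ strand): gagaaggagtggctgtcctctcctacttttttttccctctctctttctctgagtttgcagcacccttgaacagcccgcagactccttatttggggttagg
Pdgfd, chr9:6168386-6168485 (+ strand): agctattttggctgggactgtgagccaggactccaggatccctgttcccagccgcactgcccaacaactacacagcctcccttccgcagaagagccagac
Pdgfra, chr5:75152151-75152250 (+ strand): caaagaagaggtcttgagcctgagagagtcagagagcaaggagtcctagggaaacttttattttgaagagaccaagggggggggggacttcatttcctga
The window of Pdgfa lies before a start inside the gene span given above. The window of another Pdgfa start overlaps an annotated exon and is not shown. The window shown held 66% G or C, 4 CpG dinucleotides and 1 GC box, a motif present in 24.7% of 32851 mouse promoter windows of the same length. The windows of Pdgfc, Pdgfd and Pdgfra held 1, 2 and 0 CpG dinucleotides against a median of 3 over all windows, and no GC box. None of the 4 windows held the letters TATAAA (in 5.56% of all windows) or CCAAT (in 18.9%) on either strand. These matches describe the letters only.

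The donor library held 6319 barcodes with a median of 5433 UMIs (unique molecular identifiers, each standing for 1 captured transcript), and the recipient library held 3784 with a median of 6056.5. After filtering, 4642 donor and 3147 recipient cells were given 1 of 15 types by marker UMIs, none of the markers being a PDGF gene. Names end in "-like" because they rest on these markers. The donor cells were mostly general capillary-like (2425 cells) and aerocyte-like (1534), the latter being the large, thin capillary cells at the gas-exchange surface, with 112 venous-like, 315 arterial-like, 132 alveolar type 1-like and 53 pericyte-like cells. The recipient library held 418, 632, 98, 52, 186 and 530 cells of these types in the same order, and also 71 lymphatic-like, 785 alveolar fibroblast-like, 131 adventitial fibroblast-like and 183 myofibroblast-like cells. The 10 genes with the highest fold were listed in each of the 16 sums of a type in a library with at least 50 cells. They held 1 to 4 of the type's own markers and 0 markers of another type. The same markers set the types, so this outcome follows from the typing and does not test the names.

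The libraries shared 816 cell barcodes, among them 81 of the 132 donor and 141 of the 186 recipient type 1-like cells. Donor type 1-like cells were shallow (median 1514 UMIs against 14350.5), and their endothelial lineage markers stood at 1151 CPM (counts scaled to 1000000 per sum), against 82.1 CPM in the recipient cells. Whether a shared barcode is 1 cell seen in both libraries was not tested, and levels of Pdgfa and Pdgfb in type 1-like cells are given with and without such barcodes. Shares of cells and co-detection include these barcodes. Shared barcodes were also frequent among the recipient fibroblasts, with 248 of 785 alveolar fibroblast-like, 89 of 131 adventitial fibroblast-like and 40 of 183 myofibroblast-like cells. Levels below are CPM of the summed UMIs of a type, with exact 95% Poisson intervals. With 1 library per group no test was possible, and all intervals cover counting error only, not the spread between mice or cells.

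Pdgfa, which encodes the A chain, was highest in type 1-like cells, the thin epithelium through which gas is exchanged, at 1132 CPM (1092 to 1173) in the recipient and 1042 CPM (950 to 1141) in the donor library. Without shared barcodes these levels were 1033 CPM (896 to 1184, 45 cells) and 1002 CPM (879 to 1138, 51 cells). Pericyte-like cells came next, at 581 CPM (553 to 610) in the recipient and 563 CPM (480 to 656) in the donor library. Each of these type sums was more than the top of any endothelial or fibroblast interval in both libraries. Lymphatic-like cells had 85.5 CPM (59.6 to 119), with an interval that overlapped that of myofibroblast-like cells at 50.1 CPM (38.2 to 64.5). Adventitial fibroblast-like cells had 48.9 CPM and alveolar fibroblast-like cells 33.9 CPM. The other endothelial sums lay between 19.0 CPM, in donor aerocyte-like cells, and 43.9 CPM, in recipient arterial-like cells. Among types with few cells, recipient smooth muscle-like cells had 289 CPM (199 to 406, 18 cells). Ciliated-like cells had 241 CPM (163 to 345, 7 cells) in the recipient and 160 CPM (91.5 to 260, 11 cells) in the donor library. All of these ciliated-like cells had a shared barcode. Recipient alveolar type 2-like cells had 88.2 CPM (62.1 to 122, 25 cells). Of these 25 cells, 22 had a shared barcode, and 1 UMI was left without such barcodes.

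The Pdgfa of pericyte-like cells did not go with type 1 markers. In the 283 recipient pericyte-like cells without a single UMI of the type 1 markers (Hopx, Ager, Rtkn2, Akap5, Aqp5), Pdgfa stood at 573 CPM (535 to 614), and in the 43 such donor cells at 561 CPM (467 to 668). Relative to 100 UMIs of those markers, Pdgfa had 348 UMIs in recipient pericyte-like cells and 2.87 in recipient type 1-like cells. At an equal depth of 2000 UMIs per cell, 65.3% (61.1 to 69.4, exact binomial) of 525 recipient and 66.7% (52.1 to 79.2) of 51 donor pericyte-like cells had a Pdgfa UMI. The share was 4.19% in recipient and 3.36% in donor aerocyte-like cells at the same depth. Before thinning, the shares in pericyte-like cells were 89.1% and 88.7%, and in aerocyte-like cells 11.7% and 12.7%. At least 1 UMI was found in 85.6% (79.5 to 90.5) of 174 recipient type 1-like cells and in 67.7% (48.6 to 83.3) of the 31 donor cells that were deep enough, with 95.2% and 66.7% before thinning. Of the donor type 1-like cells, 101 were too shallow for this measure. Over all typed cells, type 1-like cells supplied 56.6% and pericyte-like cells 30.4% of the 5315 recipient Pdgfa UMIs, shares that follow the sorted numbers of cells as well as the levels.

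**Figure D1:**
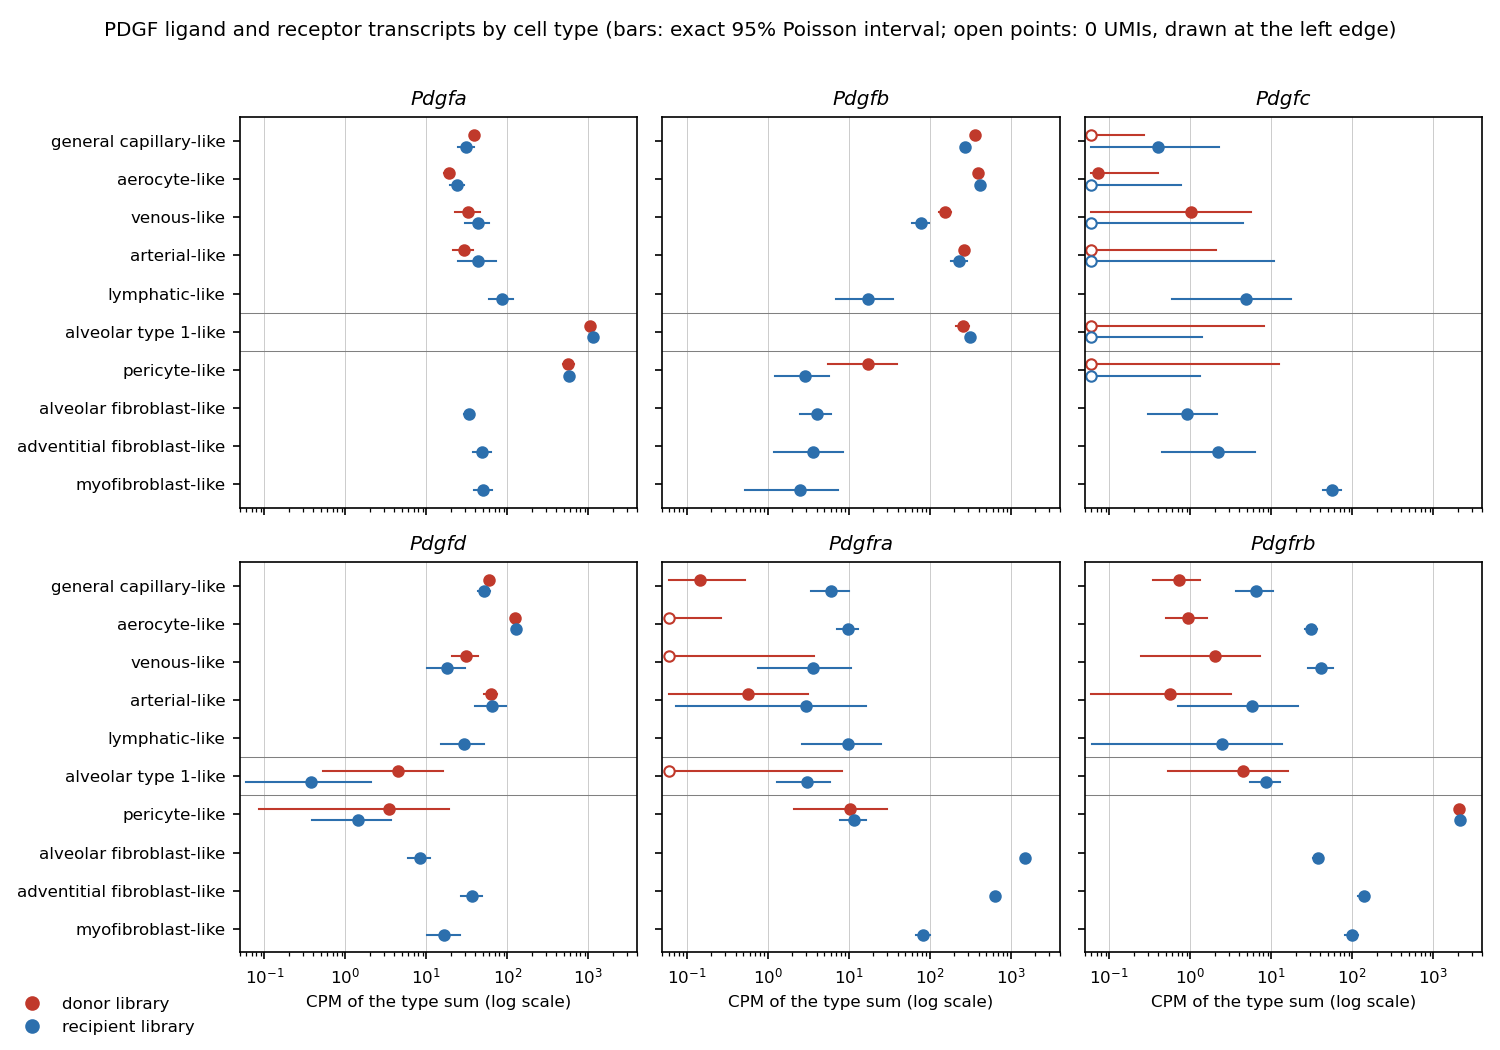
Level of each PDGF gene in every type with at least 50 cells in a library, as CPM of summed UMIs on a log axis, with exact 95% Poisson intervals, in red for the donor and blue for the recipient library. Open points at the left edge mark 0 UMIs. Pdgfa peaks in alveolar type 1-like and then pericyte-like cells, Pdgfb in capillary, arterial and type 1-like cells, Pdgfra in alveolar fibroblast-like cells (1477 CPM) and Pdgfrb in pericyte-like cells (2136 and 2092 CPM).

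Pdgfb, which encodes the B chain, was an endothelial transcript with 1 epithelial exception. Aerocyte-like cells had 419 CPM (401 to 438) in the recipient and 394 CPM (384 to 405) in the donor library. General capillary-like cells, the smaller capillary cells that also serve as progenitors, had 275 CPM (255 to 297) and 362 CPM (352 to 372), and arterial-like cells 231 CPM (183 to 288) and 266 CPM (243 to 291). Venous-like cells were lower, at 77.2 CPM (59.5 to 98.6) in the recipient and 154 CPM (130 to 180) in the donor library, and lymphatic-like cells had 17.1 CPM (6.88 to 35.2). The order from aerocyte to venous to lymphatic was thus held apart by the intervals, whereas general capillary-like and arterial-like cells of the recipient overlapped. Of the 79 recipient arterial UMIs, 27 lay in 3 cells, and without shared barcodes the arterial level was 182 CPM (136 to 239), below that of general capillary-like cells at 276 CPM (256 to 298). With a doubled gate minimum it was 146 CPM. In the recipient pericyte and fibroblast sums Pdgfb lay between 2.50 and 4.03 CPM. Donor pericyte-like cells had 17.1 CPM (5.54 to 39.8), from 5 UMIs in 53 cells. Over the alternatives run, this donor level ranged from 0.189 to 24.0 CPM.

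Recipient type 1-like cells had 313 CPM of Pdgfb (292 to 335) from 831 UMIs, and donor type 1-like cells had 255 CPM (211 to 306) from 115 UMIs. The recipient level overlapped that of general capillary-like cells and the donor level that of arterial-like cells of the same library. The 73 recipient type 1-like cells without any UMI of the endothelial lineage markers (Pecam1, Cdh5, Cldn5, Tie1, Egfl7) had 287 CPM (254 to 324), and the 40 such donor cells had 262 CPM (150 to 426) from 16 UMIs. Their median depths were 13863 UMIs in the recipient and 1292.5 UMIs in the donor library, so the lack of a marker UMI says less about the donor cells. Per 100 UMIs of those endothelial markers there were 381 Pdgfb UMIs in recipient type 1-like cells, against 2.43 in recipient aerocyte-like cells and 1.74 in recipient pericyte-like cells. In cells with a barcode of their own, the level was 120 CPM (77.1 to 179) from 24 UMIs in 45 recipient cells and 307 CPM (241 to 387) in 51 donor cells. The 141 recipient cells with a shared barcode had 328 CPM (306 to 352), so the recipient level rests mainly on those cells. Their median depth was 17233 UMIs, against 4176 in the recipient cells with their own barcode.

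At 2000 UMIs per cell, Pdgfb was seen in 55.6% (51.5 to 59.5) of recipient and 51.6% (49.1 to 54.2) of donor aerocyte-like cells, and in 44.8% (37.3 to 52.5) of recipient type 1-like cells. The share was 0.571% in recipient pericyte-like cells. Before thinning these shares were 87.5%, 90.8%, 80.6% and 1.51%. Both Pdgfa and Pdgfb were seen in 69 of 174 recipient type 1-like cells (39.7%, 32.3 to 47.3), close to the 38.4% that the product of the single shares gives. In the donor library this held for 8 of 31 cells (25.8%, 11.9 to 44.6).

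**Figure D2:**
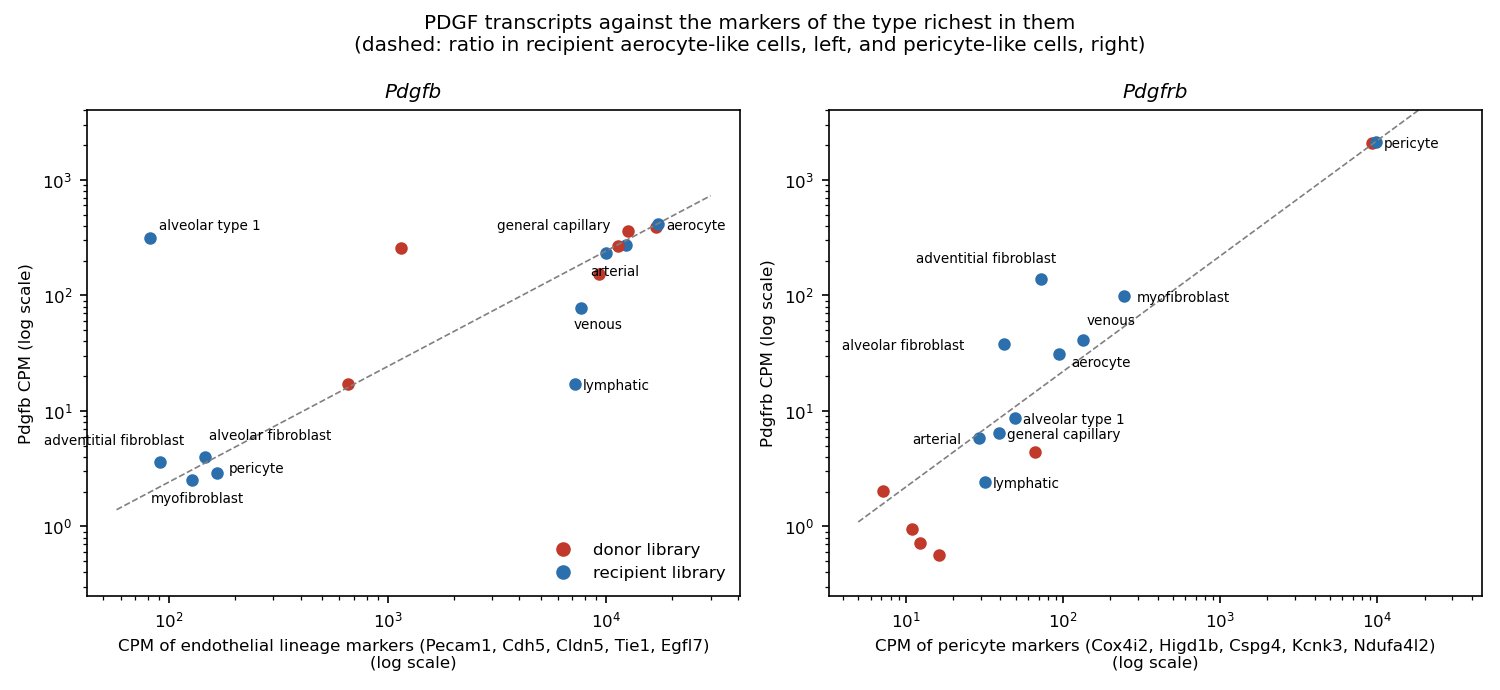
Levels of Pdgfb (left) and Pdgfrb (right) against the summed level of endothelial lineage or pericyte markers in each type sum with at least 50 cells, both on log axes in CPM; red points are donor and labelled blue points recipient sums, and dashed lines give the ratio in recipient aerocyte-like or pericyte-like cells. Recipient type 1-like cells have 313 CPM of Pdgfb at 82.1 CPM of endothelial markers, far above the line, while the pericyte and fibroblast sums lie near it. In the right panel the recipient venous-like and aerocyte-like sums lie a little above the pericyte line, and the fibroblast sums lie further above it.

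Pdgfc was the rarest ligand transcript and was found almost only in myofibroblast-like cells, the contractile fibroblasts at the mouths of alveoli. They had 56.8 CPM (44.1 to 72.0) from 68 UMIs, of which 11 were in the 3 richest cells. A Pdgfc UMI was present in 20 of 183 myofibroblast-like cells at equal depth (10.9%, 6.80 to 16.4; 27.9% before thinning), and in 1 of 776 alveolar fibroblast-like cells (0.129%). Of all 81 Pdgfc UMIs of typed recipient cells, 84.0% were in myofibroblast-like cells. Each of the other 15 sums held between 0 and 4.89 CPM, from at most 5 UMIs. The donor library had 2 myofibroblast-like cells, too few for a level, and 4 Pdgfc UMIs in all typed cells.

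Pdgfd, whose chain is cleaved outside the cell before it can bind the beta receptor, had its highest level in aerocyte-like cells, at 127 CPM (117 to 137) in the recipient and 124 CPM (118 to 130) in the donor library. Arterial-like cells had 64.3 CPM (40.3 to 97.4) and 62.2 CPM (51.1 to 75.0), and general capillary-like cells 51.8 CPM (43.2 to 61.6) and 60.2 CPM (56.2 to 64.4), so these 2 types overlapped. The level was 36.5 CPM (27.1 to 48.1) in adventitial fibroblast-like cells, 29.3 CPM in lymphatic-like cells, 18.1 and 30.5 CPM in recipient and donor venous-like cells, 16.7 CPM in myofibroblast-like cells and 8.24 CPM in alveolar fibroblast-like cells. Without shared barcodes the adventitial level was 16.9 CPM (4.61 to 43.3), from 4 UMIs. Type 1-like and pericyte-like cells of both libraries held 1 to 4 UMIs each. At 2000 UMIs per cell, Pdgfd was seen in 21.3% (18.1 to 24.7) of recipient and 21.7% (19.7 to 23.9) of donor aerocyte-like cells, against 0.381% of recipient pericyte-like cells. Before thinning these shares were 59.2%, 64.1% and 0.755%. Aerocyte-like cells with UMIs of both Pdgfb and Pdgfd made up 11.8% of the recipient and 11.1% of the donor cells, beside products of the single shares of 11.8% and 11.2%.

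**Figure D3:**
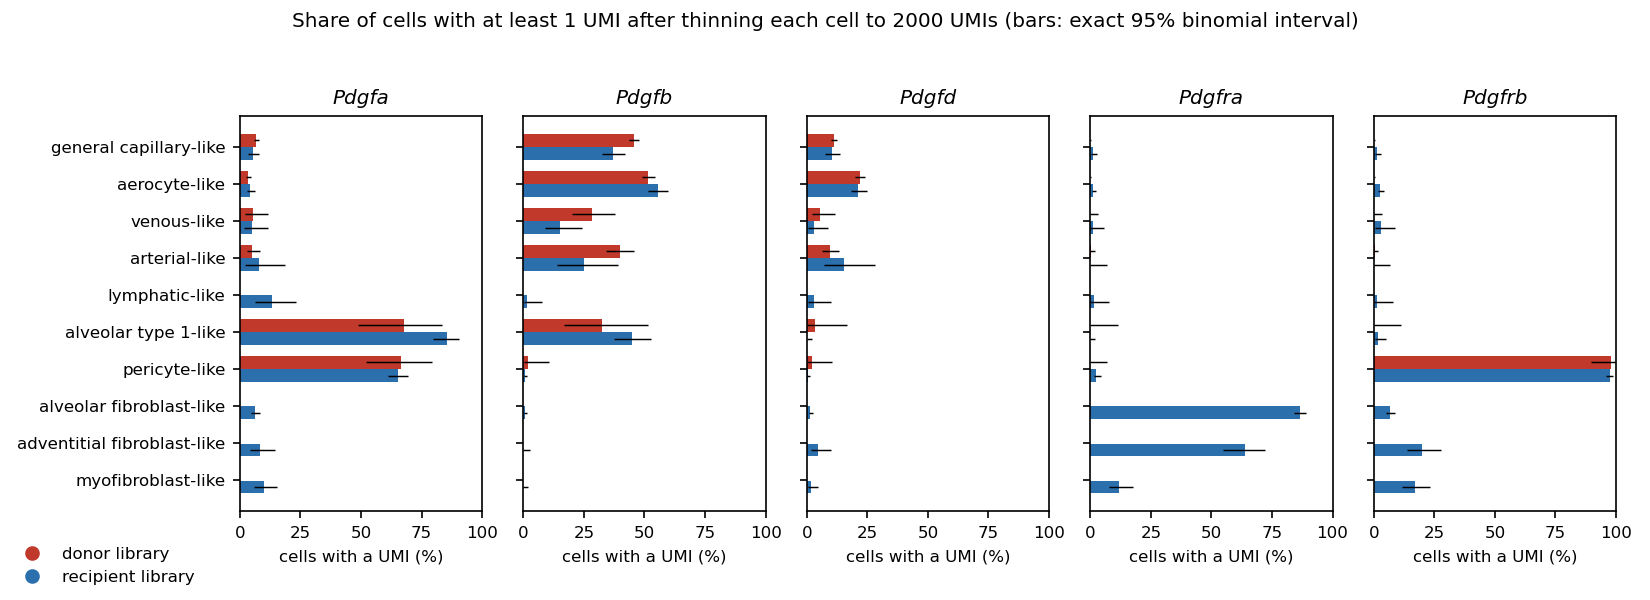
Share of cells with at least 1 UMI of each gene after every cell was thinned to 2000 UMIs, in percent, with exact 95% binomial intervals, by type and library (red donor, blue recipient). Pdgfrb is seen in 97.7% of recipient pericyte-like cells, Pdgfra in 86.7% of alveolar fibroblast-like cells and Pdgfa in 65.3% of recipient pericyte-like and 85.6% of recipient type 1-like cells.

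Pdgfra, which encodes the alpha receptor, separated the fibroblast types. It stood at 1477 CPM (1445 to 1510) in alveolar fibroblast-like cells, which lie in the alveolar wall, at 635 CPM (594 to 679) in adventitial fibroblast-like cells, found around vessels and airways, and at 83.5 CPM (67.9 to 102) in myofibroblast-like cells. None of these 3 intervals overlapped. At equal depth a Pdgfra UMI was present in 86.7% (84.1 to 89.0), 63.8% (55.0 to 72.1) and 12.0% (7.69 to 17.6) of these cells, and before thinning in 95.9%, 90.8% and 32.2%. Pericyte-like cells had 11.5 CPM (7.87 to 16.2) in the recipient and 10.2 CPM (2.11 to 29.9) in the donor library. All 3 donor UMIs lay in 1 of 53 cells, and 0 were left without shared barcodes. Of the 32 recipient UMIs, 12 lay in 3 cells, and the level without shared barcodes was 7.94 CPM (4.78 to 12.4). Over the alternatives run, this recipient level ranged from 0 to 20.5 CPM. In recipient smooth muscle-like cells all 20 Pdgfra UMIs lay in 1 of 18 cells. The few donor fibroblasts carried the transcript too, with 32 UMIs in 12 alveolar fibroblast-like cells (972 CPM, 665 to 1372) and 15 UMIs in 11 adventitial fibroblast-like cells (371 CPM, 208 to 612). Of these donor cells, 6 and 8 shared their barcode with the recipient library. Without shared barcodes the recipient levels were 1794 CPM (1746 to 1844, 537 cells) and 799 CPM (689 to 921, 42 cells).

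Pdgfrb (ENSMUSG00000024620, chromosome 18 from 61045150 to 61085061 on the plus strand) encodes the beta receptor. Like the other members it is annotated as protein-coding. It was found above all in pericyte-like cells, at 2136 CPM (2082 to 2191) in the recipient and 2092 CPM (1930 to 2264) in the donor library. At equal depth it was seen in 97.7% (96.04 to 98.81) and 98.0% (89.55 to 99.95) of them. Smooth muscle-like cells of the recipient had 658 CPM (517 to 824). Adventitial fibroblast-like cells had 138 CPM (119 to 159), myofibroblast-like cells 98.5 CPM (81.5 to 118) and alveolar fibroblast-like cells 37.9 CPM (32.9 to 43.4). The intervals of the first pair lay just apart, and that of alveolar fibroblast-like cells lay below both. Without shared barcodes that pair overlapped, at 165 CPM (117 to 225) and 102 CPM (82.1 to 126). Per 100 UMIs of the pericyte markers, the adventitial and alveolar fibroblast-like cells held 191 (149 to 246) and 89.6 (73.9 to 109) Pdgfrb UMIs, against 21.9 in pericyte-like cells. In myofibroblast-like cells that value was 40.1 (32.1 to 49.9).

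Ligand and receptor transcripts were often found in the same pericyte-like cell. Pdgfa and Pdgfrb UMIs were both present in 336 of 525 recipient pericyte-like cells (64.0%, 59.7 to 68.1) and in 33 of 51 donor cells (64.7%, 50.1 to 77.6) at equal depth, beside products of the single shares of 63.8% and 65.4%. Both receptors were seen together in 20 of 130 adventitial fibroblast-like cells (15.4%, 9.66 to 22.8), beside a product of the single shares of 12.8%. In alveolar fibroblast-like cells the count was 45 of 776 (5.80%, 4.26 to 7.68), beside a product of 5.92%. It was 12 of 525 in recipient pericyte-like cells (2.29%, beside 2.42%) and 3 of 183 in myofibroblast-like cells (1.64%, beside 2.04%).

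Donor and recipient cells of 1 type were set side by side in the 6 types with at least 50 cells in each library. A gene was counted as differing when the levels were at least 1.5-fold apart and the exact conditional 95% interval of their ratio excluded equality, for genes whose UMIs summed to at least 20 over the libraries, with none at 0. The ratio compares 2 libraries, not conditions. In pericyte-like cells the donor over recipient ratio was 0.98 (0.90 to 1.06) for Pdgfrb and 0.97 (0.82 to 1.14) for Pdgfa, and in type 1-like cells it was 0.92 (0.83 to 1.02) for Pdgfa, a log2 ratio of -0.12 (-0.04 without shared barcodes). In aerocyte-like cells it was 0.94 (0.89 to 0.99) for Pdgfb and 0.97 (0.89 to 1.07) for Pdgfd. In arterial-like cells it was 1.15 (0.91 to 1.48) for Pdgfb and 0.97 (0.61 to 1.60) for Pdgfd. General capillary-like Pdgfb was 1.31-fold (1.21 to 1.43) higher in the donor library, short of the 1.5-fold limit.

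Pdgfb in venous-like cells was the 1 member counted as higher in the donor library, at 154 CPM from 151 UMIs against 77.2 CPM from 64 UMIs, a ratio of 1.99 (1.48 to 2.71). Of all genes tested in venous-like cells, 4.29% were counted as higher and 3.76% as lower in the donor library. In these cells the general capillary markers stood at 3657 CPM in the donor and 3026 CPM in the recipient sum, and the aerocyte markers at 143 and 67.6 CPM. In the 8 donor and 17 recipient venous-like cells with at most 1 UMI of the aerocyte markers and at most 1 of Gpihbp1, Aplnr, Glp1r and Sema3c, Pdgfb stood at 92.8 CPM (30.1 to 217) and 42.7 CPM (13.9 to 99.6), from 5 UMIs each. General capillary markers were still at 1466 and 1365 CPM in these cells. That sum includes Plvap, a general capillary marker that this choice of cells did not limit. That subset was chosen after the values were seen, and the part of capillary transcripts in the venous ratio was not tested further.

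Pdgfrb was counted as lower in the donor library in general capillary-like cells (10 UMIs, 0.723 CPM, against 16 UMIs, 6.47 CPM), in aerocyte-like cells (13 UMIs, 0.945 CPM, against 148 UMIs, 30.9 CPM) and in venous-like cells (2 UMIs, 2.04 CPM, against 34 UMIs, 41.0 CPM). The shares of all tested genes counted as higher and lower were 3.32% and 6.27% in general capillary-like cells and 1.23% and 3.92% in aerocyte-like cells. The levels in pericyte-like cells were 2136 CPM in the recipient and 2092 CPM in the donor library. In the recipient, 54 of the 148 aerocyte UMIs and 30 of the 34 venous UMIs came from 3 cells each. In the 520 recipient aerocyte-like cells without a pericyte-marker UMI, Pdgfrb stood at 4.71 CPM (2.79 to 7.45), against 0.623 CPM (0.269 to 1.23) in the 1446 such donor cells. Such general capillary-like cells had 6.02 CPM (3.11 to 10.5) in the recipient and 0.609 CPM (0.263 to 1.20) in the donor library. For such venous-like cells the levels were 7.64 CPM (2.48 to 17.8) and 1.11 CPM (0.0281 to 6.18), with intervals that overlapped. Per 100 pericyte-marker UMIs, Pdgfrb had 32.7 UMIs (27.0 to 39.5) in recipient aerocyte-like cells, above the 21.9 (21.3 to 22.5) in recipient pericyte-like cells. Recipient venous-like cells had 30.6 (20.2 to 45.3), an interval that overlapped that of pericyte-like cells. Lower values were found in donor aerocyte-like cells, at 8.67 (4.51 to 15.3), and in donor general capillary-like cells, at 5.88 (2.77 to 11.1). Recipient general capillary-like cells had 16.5 (9.07 to 28.2), an interval that overlapped those of donor general capillary-like and recipient pericyte-like cells. Donor venous-like cells had 28.6 (2.90 to 150), from 2 Pdgfrb UMIs. With free RNA subtracted, both general capillary-like levels became 0, and without shared barcodes the recipient venous-like level was 21.5 CPM (12.3 to 34.9). In donor aerocyte-like cells the pericyte markers held 150 UMIs over 1534 cells, against 452 UMIs over 632 recipient cells. Pdgfra, not tested for lack of donor UMIs, had 47 UMIs in recipient and 0 in donor aerocyte-like cells. Of the 47, 15 lay in 1 cell, and 32 were left without shared barcodes. The mesenchymal lineage markers held 238 and 14 UMIs in those sums.

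No tested member was counted as differing in arterial-like, type 1-like or pericyte-like cells. There, 4.57% and 4.92%, 4.87% and 2.03%, and 2.74% and 1.34% of all tested genes were counted as higher and lower in the donor library. Members with enough UMIs to be tested were Pdgfa in each type, Pdgfb and Pdgfd in arterial-like, Pdgfb and Pdgfrb in type 1-like, and Pdgfra and Pdgfrb in pericyte-like cells. Pericyte-like Pdgfb, at 17.1 CPM in the donor and 2.88 CPM in the recipient library, had 5 and 8 UMIs and was not tested. Type 1-like Pdgfb had a log2 ratio of -0.29 over all cells and 1.35 without the shared barcodes, from 73 donor and 24 recipient UMIs, so its direction turned with that choice.

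**Figure D4:**
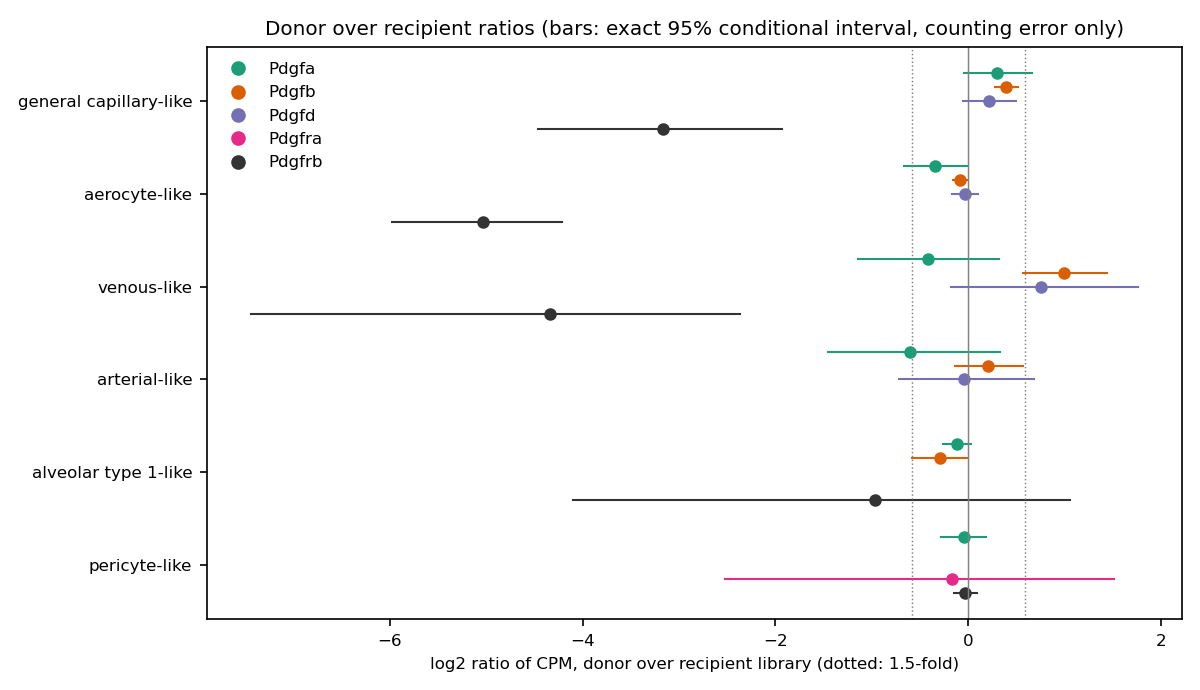
Log2 ratio of donor over recipient level for each member with UMIs in both libraries that sum to at least 20, in the 6 types with at least 50 cells per library, with exact 95% conditional intervals for counting error; dotted lines mark 1.5-fold. The points for Pdgfa, Pdgfb and Pdgfd lie within 1 unit of 0, Pdgfb in venous-like cells at 0.99, and the 3 Pdgfrb points of endothelial types lie at -3.16, -5.03 and -4.33 on levels below 50 CPM.

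Of 30 genes around the PDGF pathway, sorted by role, at most 3 in a type were counted as higher and at most 2 as lower. In general capillary-like cells 1 of 28 tested was higher and 1 lower in the donor library, with a median log2 ratio of -0.05 beside -0.01 over all genes tested. The shares were 3.57% each, against 3.32% higher and 6.27% lower over all genes tested. Aerocyte-like cells had 1 and 2 of 29 (3.45% and 6.90% against 1.23% and 3.92%, median -0.02 beside -0.02). Venous-like cells had 1 and 2 of 26 (3.85% and 7.69% against 4.29% and 3.76%, -0.16 beside 0.03). Arterial-like cells had 3 and 2 of 26 (11.5% and 7.69% against 4.57% and 4.92%, 0.20 beside 0.03). Type 1-like cells had 0 and 0 of 25 (0% and 0% against 4.87% and 2.03%, 0.05 beside 0.01). Pericyte-like cells had 2 and 1 of 27 (7.41% and 3.70% against 2.74% and 1.34%, 0.03 beside 0.00). Each pathway share rests on at most 3 genes. Among the processing genes, Plat, the tissue plasminogen activator, stood at 16.3 CPM in donor and 61.5 CPM in recipient venous-like cells. The donor level was 3.78-fold (2.12 to 7.10) lower. Plat was also counted as lower in arterial-like cells, 1.76-fold (1.46 to 2.10). Among the ligand-binding genes, Thbs1, which encodes the matrix protein thrombospondin 1, stood at 142 against 55.5 CPM in venous-like cells. There it was 2.55-fold (1.81 to 3.64) higher in the donor library. Thbs1 was also counted as higher in pericyte-like cells (2.43-fold, 1.45 to 3.91). In general capillary-like and aerocyte-like cells its donor over recipient ratio was 0.70 in each, short of the 1.5-fold limit. Among the inhibitors of receptor signalling, Spry4 stood at 129 against 52.6 CPM in arterial-like cells. There it was 2.45-fold (1.51 to 4.21) higher in the donor library, from 18 recipient UMIs. Spry4 was also counted as higher in aerocyte-like cells (2.08-fold, 1.55 to 2.84) and in pericyte-like cells (1.55-fold, 1.14 to 2.07).

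Levels of these genes also differed between the types in the recipient library. Nrp1, the co-receptor neuropilin 1, stood at 2124 CPM in aerocyte-like cells, 532 CPM in general capillary-like and 43.9 CPM in pericyte-like cells. Sparc, whose matrix protein binds PDGF-B, stood at 4265 CPM in type 1-like and 4069 CPM in pericyte-like cells, against 505 CPM in aerocyte-like cells. Thbs1 stood at 2843 CPM in myofibroblast-like and 1099 CPM in alveolar fibroblast-like cells. Furin, the protease that matures the A and B chains, stood at 160 CPM in pericyte-like, 99.4 CPM in arterial-like and 59.5 CPM in type 1-like cells. Among the signalling genes, the adaptor gene Nck2 stood at 293 CPM in pericyte-like cells and at 10.2 CPM in alveolar fibroblast-like cells. Pik3r1, which encodes a regulatory subunit of phosphoinositide 3-kinase, stood at 347 CPM and 180 CPM in the same types. Spry1, an inhibitor of receptor signalling, stood at 352 CPM in myofibroblast-like and 202 CPM in pericyte-like cells.

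By the correlation of log2(CPM + 1) over the 16 type sums, genes most like each member among 6213 were as follows. Ltbp2 (r = 0.98), Nkain4 (0.97) and Rgs4 (0.96) were nearest to Pdgfrb. Col13a1 (0.98) and Loxl1 (0.97) were among the nearest to Pdgfra, both highest in alveolar fibroblast-like cells. Ocln, the tight-junction gene for occludin, Stx3 and Cyp4b1 (0.97 each) were nearest to Pdgfb, with Ocln highest in recipient type 1-like cells and the others in recipient aerocyte-like cells. Cystm1 (0.95), Map6 (0.94) and Tmem245 (0.94) were nearest to Pdgfa, Ptgfrn (0.95), Nav1 (0.95) and Slc43a3 (0.94) to Pdgfd, and Agt (0.95), Lgr5 (0.90) and Tcap (0.89), all highest in myofibroblast-like cells, to Pdgfc. The sums of 1 type in both libraries and of all types in 1 library share their source, so these values describe the pattern only.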

How the data were processed

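The authors deposited raw UMI counts for each gene in each barcode. Per the labels' protocols and the submitters' processing notes, the authors made them with Cell Ranger against mm10 (the protocol names version 3.0.1, the notes 4.0.0). The matrices hold no tdTomato feature, so the sort labels were not checked against it. The PDGF genes, gene lists and gate limits were chosen with earlier results of these data known.

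Outlying barcodes were left out, by a limit of 3 scaled median absolute deviations on genes, UMIs and mitochondrial share within a library, which kept 4987 donor and 3311 recipient barcodes. The highest Scrublet scores (scanpy 1.11.5) were removed at 0.8% per 1000 barcodes, leaving 4703 and 3209. A cell needed at least 3 UMIs over at least 2 markers of a type. Its marker UMIs per 10000 were divided by the mean of the 30 richest barcodes, and the highest score gave the type. Cells with another lineage's score above 0.5 of the best were left out (34 donor, 27 recipient), and 27 and 35 had no type.

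UMIs were summed per type and library and given as CPM with exact Poisson intervals, ratios with exact conditional intervals and shares with exact Clopper-Pearson intervals (numpy 2.4.6, scipy 1.17.1). TMM factors came from edgeR 4.0.16. The calls were also run on simulated data, and the outcome of that run is not given here. Named were all members, the 3 genes most like each by Pearson r among genes at 50 CPM or more in at least 1 sum, and genes of the pathway list at 50 CPM or more that differed at least 2-fold with an interval excluding 1.5-fold, plus up to 3 examples per role with the highest level. One gene named by this rule is not reported here. The alternatives changed the cell filter, doublets, shared barcodes, gate, averaging, free RNA, thinning depth, count minimum and scaling.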

Additional observations from a re-analysis of the deposited data

How the results depend on the processing

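Over all alternatives run, the level of Pdgfrb in pericyte-like cells stayed between 1922 and 2243 CPM, that of Pdgfa between 518 and 592 CPM in pericyte-like and between 904 and 1145 CPM in type 1-like cells, and that of Pdgfra between 1463 and 1794 CPM in alveolar fibroblast-like cells. The type 1-like log2 ratio of Pdgfb turned from -0.29 to 1.35 without shared barcodes and was -0.72 as a mean over cells. The pericyte-like log2 ratio of Pdgfra, from 3 donor UMIs, turned to 2.29 as a mean over cells. Pathway genes counted as lower became 0 in general capillary-like, aerocyte-like and venous-like cells, and those counted as higher in arterial-like cells became 1, with a minimum of 100 counts, which tests fewer genes. TMM factors changed no such count. Recipient type 1-like Pdgfb ranged from 120 to 316 CPM, recipient arterial-like Pdgfb from 146 to 238 CPM, recipient aerocyte-like Pdgfrb from 11.8 to 45.7 CPM and recipient venous-like Pdgfrb from 19.6 to 51.5 CPM. General capillary-like Pdgfrb ranged from 0 to 2.04 CPM in the donor and from 0 to 17.8 CPM in the recipient library. The cause was not tested. The ratio of Pdgfa in general capillary-like cells was counted as higher with free RNA subtracted (0.59) and that of Pdgfd in venous-like cells with doublets kept (1.11). Of 65 levels, 0 left their interval under either other cell filter, 10 with doublets kept, 7 with a doubled gate minimum, 9 as a mean over cells, 14 without shared barcodes and 21 with free RNA subtracted. A halved limit on another lineage, chosen after seeing the data, moved 3. Of the shares, 22 left their interval at 3000 UMIs per cell and 28 did not. No paired analysis was possible because each group is 1 library. Depth limits Pdgfc and all donor fibroblast values.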

Other observations

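Pdgfb also varied within the general capillary-like cells, in splits chosen after values of the series had been seen. The 199 donor cells with at least 3 UMIs of Esm1 or Inhbb, genes of activated or sprouting endothelium, had 185 CPM of Pdgfb (162 to 211), against 402 CPM (390 to 415) in the 1829 donor cells with 0 UMIs of both. In the recipient library the 31 cells with at least 3 UMIs had 187 CPM (131 to 258) and the 328 cells without had 296 CPM (272 to 321). Median depths were 5626 and 5319 UMIs in the donor and 5774 and 5593.5 in the recipient cells. Pdgfd in the same donor cells was 65.7 CPM (52.3 to 81.6) against 60.7 CPM (56.0 to 65.7). Split by Glp1r, a marker that also typed these cells, Pdgfb was 423 CPM (409 to 438) in 1236 donor cells with at least 3 UMIs. The 445 donor cells with 0 had 238 CPM (218 to 260). Recipient values were 287 CPM (262 to 314) in 271 cells and 332 CPM (266 to 409) in 47, whose intervals overlap. These donor cells had median depths of 5767 and 4816 UMIs, and the recipient cells 5752 and 5118. Split by Hey1 or Sema3g, donor Pdgfb was 328 CPM (316 to 341) in 1271 cells with at least 3 UMIs. It was 407 CPM (377 to 439) in 321 donor cells with 0. Recipient levels in that split were 260 CPM (231 to 291) in 183 cells and 259 CPM (219 to 304) in 98. With 1 library per group the intervals of these levels cover counting error only, not the spread between mice or cells.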
